A study of Mus musculus with 6 samples.

Results

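Transcripts of plasma proteins of the complement and clotting cascades were examined in the livers of SRC-2 null and wild-type mice. The set was defined by gene symbol from 34 genes, and every probe set of the array annotated with exactly one of these symbols was taken, whatever its value. This gave 43 probe sets, of 45101 on the array, for 32 genes, of 18193 genes with a probe set of their own. The other 2 genes, C3 and C4b, are not analysed here. The rule itself used no measured value, but the genes were chosen with earlier results of these data known. SRC-2, the product of Ncoa2, is a p160 coactivator of nuclear receptors. All mice were female, on a C57 background, and were ovariectomized at 6 weeks of age and killed 2 weeks later under Avertin anesthesia. The groups were wild-type liver (3 arrays) and SRC-2 null liver (3 arrays). The labels do not describe the null allele and tie it to no single cell type of the liver.

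Hepatocytes make most of the circulating complement and clotting proteins. Complement is started by antibody through C1, by surface sugars through the lectin pathway or by spontaneous turnover through the alternative pathway. These routes build convertases, which cleave the central components and lead to the membrane attack complex. Clotting runs through serine proteases, several of them dependent on vitamin K, to thrombin, which turns fibrinogen into fibrin. Antithrombin, heparin cofactor II, protein C and protein S restrain it, and plasmin dissolves the clot.

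Ncoa2 was 5.41-fold lower in the null livers, with wild-type arrays at 7.74, 7.92 and 8.53 and null arrays at 5.60, 5.44 and 5.86 on the log2 scale. The labelled tissue was borne out by 8 measured hepatocyte markers, albumin among them, whose mean per array lay between 13.69 and 13.72 in wild-type and between 13.71 and 13.75 in null liver. Of all 11889 genes tested, 556 (4.68%) were called, that is, had a Benjamini-Hochberg adjusted p under 0.05 in limma, with 184 higher (1.55%) and 372 lower (3.13%). Nothing in the labels says that the arrays of a group came from different animals, so p-values measure the spread between samples, which may be technical. Array number 3 of both genotypes stood apart from numbers 1 and 2, and values without both are given for some genes of the set. Of 16 macrophage markers 14 fell, with a median log2 fold change of -0.95. The 8 with the smallest p, Marco, Cd5l, Timd4, C1qa, C1qb, Clec4f, Mpeg1 and Lyz2, fell 1.84-fold to 5.10-fold, and Fcgr1 and Cd14 did not pass. Cd14 gave -0.46 (adjusted p = 0.054) and passed when the replicate number was fitted as a block (0.033). That fit, called the replicate block below, treats arrays of the same number as matched. The labels do not state such a match, and the data do not pair numbers 1 and 2.

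Both genes for mannose-binding lectins, Mbl1 and Mbl2, fell in SRC-2 null liver, and the other 30 measured complement and clotting genes did not pass the test. The fall was 1.42-fold for Mbl1 and 1.33-fold for Mbl2. Both called genes were lower, 2 of 32 (6.25%), beside 4.68% of all genes called in either direction and 3.13% called lower. A share that rests on 2 genes is not a result about the set. None was called higher (0 called by limma and 1 above 0 at an unadjusted p under 0.05, Pros1). With the replicate number as a block 1 was called higher, again Pros1, against 2.58% of all genes. For 29 of the 32 genes, 90.6%, the 95% confidence interval of the fold change lay within 1.5-fold in both directions, as it did for 86.6% of all genes tested. The exceptions were Mbl1, Mbl2 and C8g, a subunit of the membrane attack complex, named after their values were seen.

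**Figure D1:**
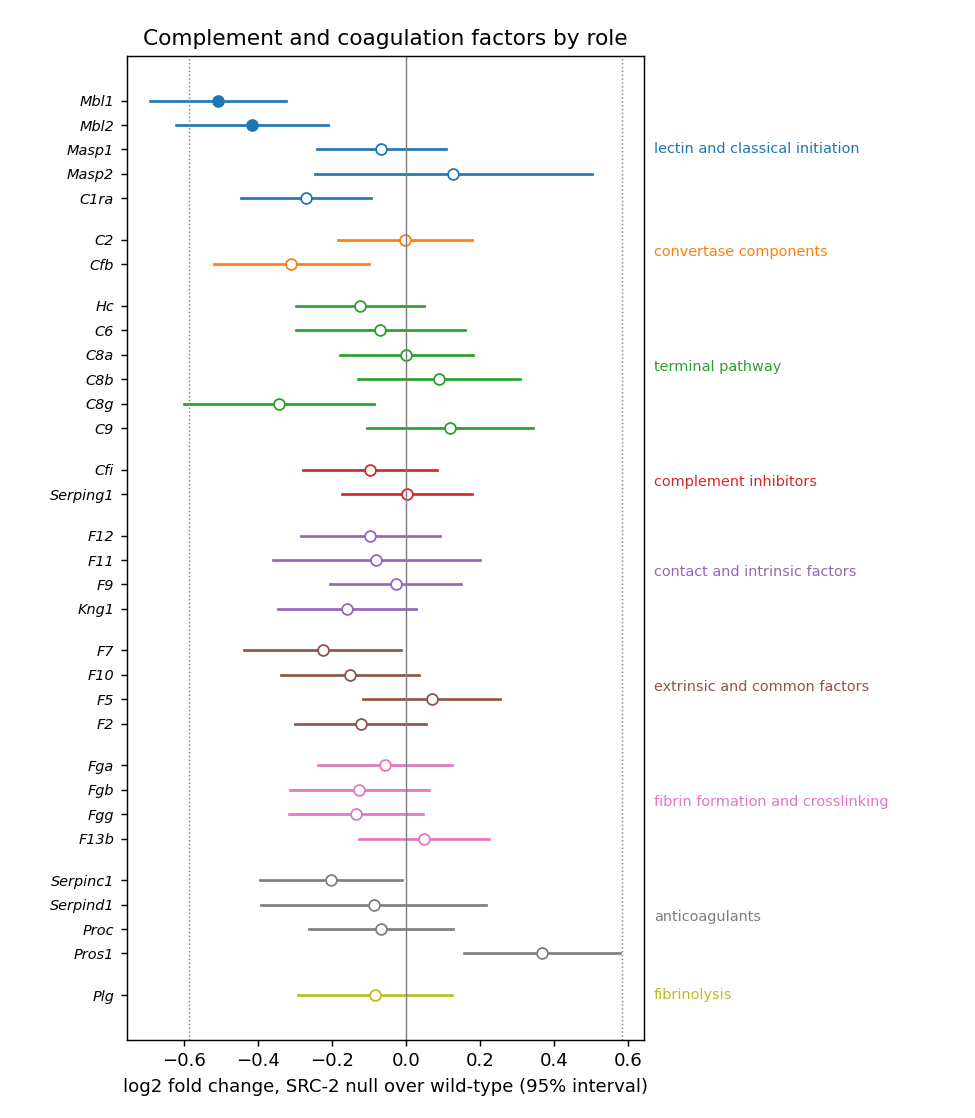
Log2 fold change of SRC-2 null over wild-type liver for the 32 genes, grouped by role, with the 95% confidence interval from limma (3 arrays per genotype). Filled circles mark Mbl1 and Mbl2, the genes called at an adjusted p under 0.05, and dotted lines mark a 1.5-fold difference either way. Of the 32 values, 24 lie below 0.

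Most of the values were small and below 0. The log2 fold change was below 0 for 24 of 32 genes (75%), against 49.4% of all genes tested, and the median was -0.09 (-0.085 before rounding) against 0.00 (0.003) over all genes. The medians within replicate numbers 1, 2 and 3 were -0.08, -0.10 and -0.09. Values on the 3 null arrays all lay below those on the 3 wild-type arrays for 13 genes (40.6%), where 12.5% of all genes did so, and all above for 2 genes (6.25%), where 10.8% did. When each array was centred on the median of its tested genes, these counts were 7 genes lower (21.9%, against 11.2% of all genes) and 2 higher (6.25%, against 13.2%). Another 28 secreted plasma protein genes of the liver, outside complement and clotting, had 18 values below 0, a median of -0.03 and 9 genes (32.1%) with all null arrays lower. The within-genotype SD had a median of 0.06 log2 units in the complement and clotting genes and 0.13 over all genes tested.

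The genes whose products start the lectin pathway are shown first because they carried both calls. Mannose-binding lectins are collagen-like plasma proteins that bind sugars on microbial surfaces. Mbl1 (probe set 1419578_at) read 10.26, 10.20 and 10.18 in wild-type and 9.65, 9.68 and 9.77 in null liver. The lowest wild-type array was above the highest null array by more than the spread within either genotype. The means were 10.21 ± 0.04 and 9.70 ± 0.06 (SD, n = 3), a log2 fold change of -0.51 (SE 0.08, limma adjusted p = 0.00963). Mbl2 (1418787_at) read 11.51, 11.48 and 11.32 in wild-type and 11.06, 11.06 and 10.94 in null liver, again without overlap. Its means were 11.44 ± 0.11 and 11.02 ± 0.07 (SD, n = 3), with a log2 fold change of -0.42 (SE 0.09, adjusted p = 0.0375). Within replicate numbers 1, 2 and 3 the differences were -0.60, -0.52 and -0.40 for Mbl1 and -0.46, -0.42 and -0.37 for Mbl2. The calls were close to the threshold. For Mbl1 the adjusted p was 0.0517 when wild-type replicate 2 was left out and 0.0507 when null replicate 2 was, which ended its call. With replicates 1 and 2 only, Mbl1 gave -0.56 and kept its call (limma adjusted p = 0.035). For Mbl2 the call ended when any array but the third wild-type one was removed (adjusted p from 0.0984 to 0.16, against 0.0335 without that array), with replicates 1 and 2 only (0.0633), without the filter on dim genes (0.0577), and with centred arrays (0.0898). When each of 19612 probe sets was tested on its own, Mbl1 kept its call and Mbl2 did not, so 1 of the 42 testable probe sets of the set was called, against 2.43% of all probe sets.

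The start regions of both genes are printed because both genes fell. The sequences are the 250 bases before the RefSeq start site on build GRCm38.p6, plus strand, at chr14:41151206-41151455 for Mbl1 and chr19:30232678-30232927 for Mbl2. Capitals mark the bases that both genes share in a 39-base window, lined up without gaps around their longest common run.
Mbl1: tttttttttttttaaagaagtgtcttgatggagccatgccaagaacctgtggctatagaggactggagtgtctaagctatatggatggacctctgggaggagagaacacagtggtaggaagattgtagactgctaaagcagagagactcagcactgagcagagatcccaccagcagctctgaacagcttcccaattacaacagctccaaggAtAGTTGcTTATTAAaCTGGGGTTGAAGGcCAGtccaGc
Mbl2: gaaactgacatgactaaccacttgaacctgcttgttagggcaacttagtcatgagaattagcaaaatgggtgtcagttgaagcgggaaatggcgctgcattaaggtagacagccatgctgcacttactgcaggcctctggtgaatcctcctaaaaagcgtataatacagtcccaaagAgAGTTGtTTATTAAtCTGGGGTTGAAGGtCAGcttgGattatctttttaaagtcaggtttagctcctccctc
The window held 30 identical bases of 39 (76.9%). Its core was a run of 13 bases, CTGGGGTTGAAGG, which ended 11 bases before the start site in Mbl1 and 45 bases before it in Mbl2. On either strand the run was found in 3 of 32851 RefSeq promoters of this length (0.00913%), the remaining one being that of Slc25a53. Mbl1 and Mbl2 were bound to be among the 3, since the run was taken from them. Among 276 pairs of the 24 measured complement and clotting genes with a promoter in the table, the median of the longest common run was 8 bases, and 1 other pair, Mbl1 with C9, shared a run as long. A shared stretch describes the letters of these paralogous genes and does not identify a binding site.

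Motifs of liver transcription factors were also counted. Each of the 24 genes was counted once, while the share over all promoters counts every entry, 32851 for 27025 genes. The letters AGGTCA, a half-site of nuclear receptors, were found on either strand of 8 of the 24 promoters (33.3%) and of 14.0% of all promoters. They occurred in Mbl2, C6, C8b, F7, F10, F5, F2 and Fgg, and not in this window of Mbl1. The HNF1 half-site GTTAAT was in 7 of 24 (29.2%, against 6.43% of all), the C/EBP letters TTGCNNAA in 5 of 24 (20.8%, against 9.56%) and the forkhead letters TGTTTNC in 9 of 24 (37.5%, against 17.8%). Neither mannose-binding lectin gene held any of these last 3. Matches of different motifs overlapped each other in 1 of the 24 promoters.

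The genes of the proteases that mannose-binding lectins carry were not called. Masp1, which encodes the proteases MASP-1 and MASP-3, had a log2 fold change of -0.07 (SE 0.08, adjusted p = 0.733) on its brightest probe set, with wild-type arrays at 9.69, 9.73 and 9.76 and null arrays at 9.63, 9.68 and 9.68. The null arrays were lower by a margin smaller than the within-group range. Its other probe sets gave -0.12, -0.36, -0.17 and -0.18, the last below the filter value of 4.21, and none was called. The probe set at -0.36 read 7.32, 7.58 and 7.46 in wild-type and 6.89, 7.18 and 7.23 in null liver. Its groups did not overlap (adjusted p = 0.247 among all probe sets). Probe sets ending in _s_at or _x_at can detect related transcripts. Masp2, the protease that cleaves the components of the classical convertase, gave 0.13 (SE 0.16) on its brightest probe set, with wild-type arrays at 9.83, 9.83 and 9.38 and null arrays at 9.99, 9.92 and 9.52. The number 3 arrays of both genotypes were low and the groups overlapped. Within replicate numbers 1, 2 and 3 the differences were 0.16, 0.10 and 0.13, and with numbers 1 and 2 only the value was 0.13 (0.126). Leaving out wild-type replicate 3 alone, which keeps the low null array, gave -0.02. A further Masp2 probe set read 8.55, 8.49 and 8.69 in wild-type and 8.94, 8.85 and 8.78 in null liver. Its groups did not overlap, at a log2 fold change of 0.28 (adjusted p = 0.23 among all probe sets). C1ra, a protease of the antibody-triggered C1 complex, read 10.04, 10.03 and 9.99 in wild-type and 9.74, 9.80 and 9.71 in null liver. That difference of -0.27 (SE 0.08) separated the groups but did not pass (adjusted p = 0.106).

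**Figure D2:**
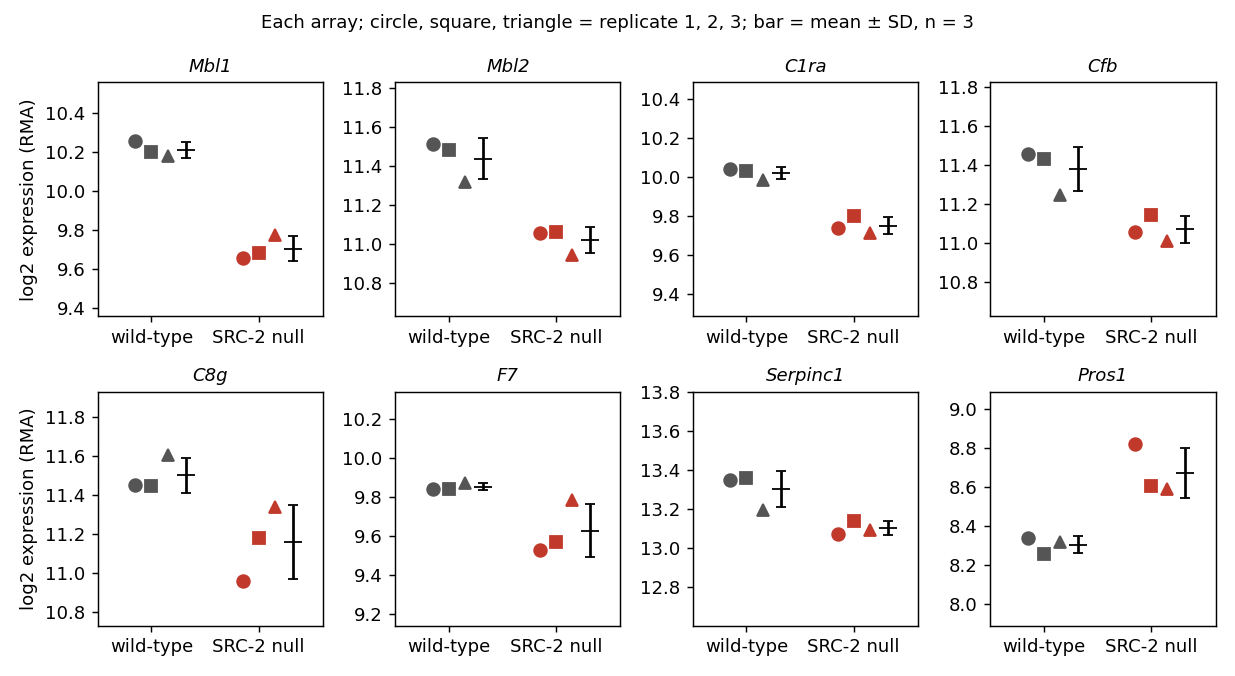
Log2 expression on each array for the 8 genes with an unadjusted limma p under 0.05, with symbols for the replicate number and bars for mean ± SD (n = 3 per genotype). Each panel spans 1.2 log2 units, and Pros1 is the gene with higher null values. The groups overlap in none of the panels, which choosing genes by p favours. At this p, 1 of the 32 genes was higher and 7 were lower. Of all 11889 genes tested, 901 were higher and 1139 lower.

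Among convertase components, C2 and Cfb lie next to each other on the chromosome and differed in their values. Cfb, factor B of the alternative pathway, read 11.46, 11.43 and 11.25 in wild-type and 11.06, 11.14 and 11.01 in null liver. The groups did not overlap, and the difference of -0.31 (SE 0.09, 95% interval -0.52 to -0.10) had an adjusted p of 0.119. C2, the corresponding protease of the classical and lectin pathways, had means of 8.99 in both genotypes, a log2 fold change of 0.00 (-0.001) and an interval of -0.18 to 0.18. Its other probe sets gave 0.05 and 0.05. With eBayes trend and robust settings both Cfb (adjusted p = 0.0275) and C1ra (0.025) passed, as they did with array weights (0.0356 and 0.0497). The difference between Cfb and C2 was not itself tested.

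The 6 genes of the terminal pathway split without a call. C8g, the small lipocalin-like chain of C8, read 11.45, 11.45 and 11.61 in wild-type and 10.96, 11.18 and 11.34 in null liver. The null values were spread widely but all lay lower, with a difference of -0.34 (SE 0.11, adjusted p = 0.161). The other C8 chains, C8a and C8b, which are neighbours on the chromosome, gave 0.00 (0.002) and 0.09 with overlapping groups. Hc, which encodes C5, read 12.13, 12.13 and 12.09 against 12.018, 11.963 and 12.001, a separated but small difference of -0.12 (SE 0.08, adjusted p = 0.47). C6 and C9, which bind in sequence to form the pore, gave -0.07 and 0.12 with overlap, the latter 0.08 with numbers 1 and 2 only. The complement inhibitor genes were not called. Cfi, the protease that inactivates convertase fragments, gave -0.10 (interval -0.28 to 0.08), and Serping1, the C1 inhibitor, gave 0.00 (interval -0.17 to 0.18).

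Clotting factors showed small differences, mostly below 0, and no call. In the extrinsic and common pathway, F7, the protease that binds tissue factor, read 9.84, 9.84 and 9.87 in wild-type and 9.53, 9.57 and 9.78 in null liver. Its difference of -0.22 (SE 0.09) separated the groups with an adjusted p of 0.263, and was -0.29 with numbers 1 and 2 only. F10, its neighbour on the chromosome and its substrate, gave -0.15, -0.20 and -0.21 on its 3 probe sets, and the groups were separated on each of them with no call. On the brightest it read 11.15, 11.24 and 11.18 against 11.07, 11.09 and 10.96. F2, prothrombin, read 12.79, 12.82 and 12.90 in wild-type and 12.70, 12.71 and 12.74 in null liver, a difference of -0.12 (SE 0.08, adjusted p = 0.497). F5, the cofactor of factor X, gave 0.07 and 0.05 on its probe sets, with overlap.

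In the contact and intrinsic branch all 4 genes were below 0, from -0.16 to -0.03. Kng1, which encodes kininogen, read 12.94, 12.91 and 12.87 in wild-type and 12.66, 12.82 and 12.75 in null liver, a difference of -0.16 (adjusted p = 0.379). A further Kng1 probe set read 11.58, 11.64 and 11.58 against 11.29, 11.36 and 11.30. Its difference was -0.29 (adjusted p = 0.143 among all probe sets), again with separated groups. F12, F11 and F9, the proteases of this branch, gave -0.10, -0.08 and -0.03 with overlapping groups.

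The fibrinogen genes, which adjoin each other, had small values on the same side of 0. Fga, Fgb and Fgg encode the chains of fibrinogen and had log2 fold changes of -0.06, -0.12 (-0.125) and -0.13 (-0.135). The intervals reached from -0.24, -0.31 and -0.32 up to 0.13, 0.06 and 0.05. Fgg read 13.41, 13.37 and 13.35 in wild-type and 13.29, 13.27 and 13.17 in null liver, without overlap. These means, between 13.19 and 13.65, lay near the top of the scale, where the highest value on any array was 14.45 to 14.60, and whether this narrowed the differences was not tested. F13b, the carrier chain of the fibrin-crosslinking factor, read 10.40, 10.40 and 10.37 against 10.49, 10.40 and 10.41, a difference of 0.05 (SE 0.08) whose groups were barely apart. Plg, the precursor of plasmin, gave -0.08 with overlap.

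Among anticoagulants, Pros1 stood on the other side from the rest. Pros1 encodes protein S, the vitamin K-dependent cofactor of activated protein C. It read 8.34, 8.26 and 8.31 in wild-type and 8.82, 8.61 and 8.59 in null liver. All null arrays were higher, with means of 8.30 ± 0.04 and 8.67 ± 0.13 (SD, n = 3). The null level was 1.29-fold that of wild-type, a log2 fold change of 0.37 (SE 0.09) with a limma adjusted p of 0.0662. With the replicate block the adjusted p was 0.0433, and it was 0.0369 with a filter at a mean of 6. With numbers 1 and 2 only it was 0.125, and without single arrays it ranged from 0.0878 to 0.239. Proc, which encodes protein C, gave -0.07 with overlap. Serpinc1, antithrombin, read 13.35, 13.36 and 13.20 in wild-type and 13.07, 13.14 and 13.09 in null liver, a separated difference of -0.20 (SE 0.08, adjusted p = 0.265) that was -0.25 with numbers 1 and 2 only. Serpind1, heparin cofactor II, gave -0.09 (SE 0.13), with overlap. Protein S is also made by endothelial cells and macrophages. Endothelial markers had a median of -0.02, with 7 of 12 below 0. Among them 1 was called, Flt1, at 0.44 (8.33%, against 4.68% of all genes). Other Flt1 probe sets gave 0.12, 0.06 and 0.11 with overlapping groups, the last below the filter. None of the fits lacking an array called Flt1, nor did the fit of single probe sets (adjusted p = 0.0836). Lyve1, a marker of sinusoidal endothelium, gave 0.56 with all null arrays higher, at an adjusted p of 0.0662, or 0.0144 with the replicate block. Pecam1, the next by p among those not called, gave -0.35 with overlapping groups (limma adjusted p = 0.301). Macrophage markers fell, as given above. The part of other cells in the Pros1 value was not tested.

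Arrays of 1 genotype also differed among themselves. Array number 3 lay outside numbers 1 and 2 on the same side in both genotypes for 21 of the 32 genes (65.6%), 11 above and 10 below, where 46.5% of all genes tested and 57.1% of the other secreted plasma proteins did so. Masp2 was lower on number 3 by 0.44 in both genotypes, Serpind1 by 0.41 in wild-type and 0.23 in null, and F11 by 0.27 and 0.31. C8g, C9, C6 and Plg were higher there in both, by 0.13 to 0.27. For 12 genes (37.5%) the mean shift of number 3 was larger than the genotype difference, a smaller share than the 52.3% of all genes tested. Over the 32 genes the deviations of the 2 number 3 arrays from their group means had a Pearson correlation of 0.83, against 0.52 over all 11889 genes. This is a description across genes, which are not independent. The labels do not say what the number stands for.

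**Figure D3:**
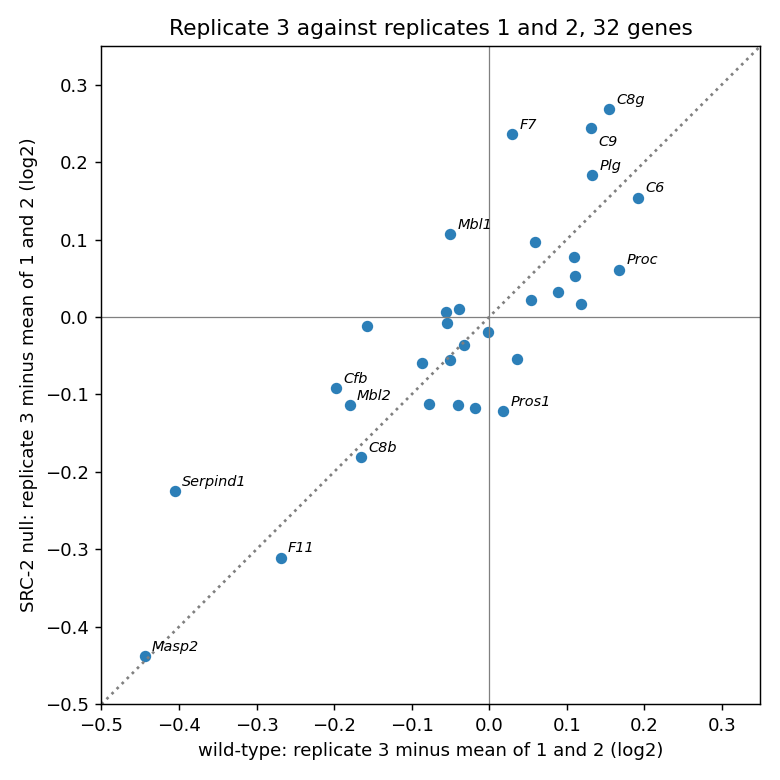
For each of the 32 genes, array number 3 minus the mean of numbers 1 and 2 in wild-type (horizontal) and SRC-2 null liver (vertical), in log2 units, with the dotted line where both are equal. Masp2, Serpind1 and F11 sit low in both genotypes and C8g, C9, Plg and C6 sit high in both.

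Other complement genes, many of them made or carried by leukocytes, had the larger values. Of 23 that were bright enough, 8 fell, 1 rose and 14 did not pass (39.1% called, against 4.68% of all genes), with a median of -0.16. C1qa, C1qb and C1qc, the chains of the recognition subunit of C1 and products of macrophages, fell 2.01-fold, 2.21-fold and 1.95-fold. C1qa read 8.56, 8.52 and 8.54 in wild-type and 7.56, 7.45 and 7.59 in null liver. Vsig4, a complement receptor of Kupffer cells, fell 1.75-fold, Fcna, a ficolin of the lectin pathway, 1.66-fold, and Cfp, properdin, 1.59-fold (a dimmer Cfp probe set gave 0.00). Itgb2, the shared chain of leukocyte integrins and complement receptors, fell 2.57-fold. Of the 9 genes called, 4 also stand in the macrophage marker list, all of whose 16 measured members had lower values. The mean over those markers was 7.82 to 7.90 on wild-type and 6.83 to 6.88 on null arrays. In whole liver, fewer macrophages and less RNA per macrophage cannot be told apart. Colec10, a collectin related to mannose-binding lectin, fell 1.43-fold (adjusted p = 0.0426), but lost its call without any array but null replicate 3. The related Colec11 gave 0.04. Susd4, a membrane regulator of complement, rose 1.67-fold from 6.13, 6.08 and 6.35 to 6.84, 6.94 and 7.001 (adjusted p = 0.00456), and its second probe set was called too. C1s1, the partner protease of C1ra, read 10.52, 10.53 and 10.38 against 10.26, 10.12 and 10.004. At -0.35 it did not pass (adjusted p = 0.0933), but had an adjusted p of 0.0435 with the replicate block. C3ar1, an anaphylatoxin receptor, gave -0.30 and did not pass.

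Of 25 other genes of clotting and fibrinolysis, 1 fell, 24 did not pass and none rose (0 called by limma and 1 at an unadjusted p under 0.05). This is 4% called, about the share of all genes. The gene was Serpina10, the protein Z-dependent protease inhibitor, at 11.08, 11.07 and 11.01 in wild-type and 10.68, 10.62 and 10.71 in null liver. It was 1.30-fold lower (adjusted p = 0.03), a call that none of the fits lacking an array kept. Fgl1, a fibrinogen-related liver protein, and Vkorc1l1, a relative of the vitamin K epoxide reductase, gave -0.28 and 0.29 without passing. F2r, a thrombin receptor, gave 0.37 with overlapping groups (adjusted p = 0.396), and with the replicate block it was called higher (adjusted p = 0.0316). Of 28 other secreted plasma proteins, Serpina6, which encodes corticosteroid-binding globulin, fell 1.71-fold. Igfals, a carrier subunit of insulin-like growth factors, and Afm, afamin, fell 1.34-fold and 1.29-fold, and none rose (0 called and 0 at an unadjusted p under 0.05). That is 10.7% called, against 4.68% of all genes. Of the fits lacking an array, Igfals was called in that without null replicate 3 and Afm in none. In the fit of single probe sets none of Igfals (adjusted p = 0.0544), Afm, Serpina10 (0.0618) and Colec10 (0.083) was called. Itih4 and Cp, an inter-alpha-inhibitor heavy chain and ceruloplasmin, had the smallest p among those not called, at -0.27 and -0.26.

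**Figure D4:**
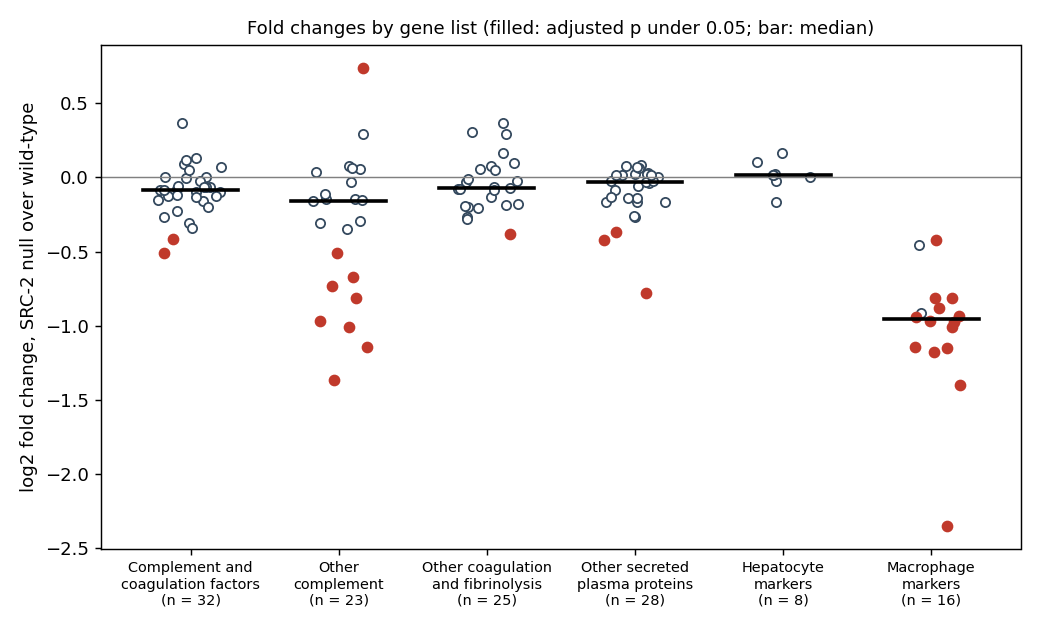
Log2 fold change of each measured gene in 6 lists, SRC-2 null over wild-type, with filled points for genes called by limma, bars for list medians and the number of genes under each name. The 32 complement and coagulation factors lie between -0.51 and 0.37. The 16 macrophage markers lie between -2.35 and -0.425, so the 2 ranges meet at their ends. Several other complement genes lie below -0.51.

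Of 19 measured regulators of plasma protein genes, 2 fell and 1 rose (15.8% called, against 4.68% of all genes). Nr0b2, the repressor SHP, fell 1.93-fold from 8.02, 8.03 and 8.24 to 7.16, 7.02 and 7.26 (adjusted p = 0.00127). Il1r1, the interleukin-1 receptor, fell 2.23-fold (adjusted p = 0.000222). Esr1, the oestrogen receptor, rose 1.34-fold (adjusted p = 0.0423), a call that none of the fits lacking an array kept, nor the fit of single probe sets. Hnf4a and Cebpa, transcription factors of many complement and clotting genes, gave -0.06 and 0.01. Cebpb, which drives acute phase genes, read 10.28, 10.41 and 10.92 in wild-type and 9.84, 9.96 and 10.20 in null liver. At -0.54 it did not pass (adjusted p = 0.153), and with the replicate block its adjusted p was 0.0197. Onecut1, the next by p, gave 0.39 with overlap. Platelet and neutrophil markers had medians of 0.06 (0.065 for 6 platelet and 0.056 for 5 neutrophil genes), with 0 called by limma and 0 at an unadjusted p under 0.05 in either list.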

How the data were processed

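RNA from flash-frozen liver was measured on 6 arrays. The authors deposited log2 values, 1 column per array, made with RMA per the submitters' processing notes. For its version, the chip description and the genome build, nothing is given in the sources used here. RMA corrects background, equalises arrays and pools the probes of a set, which compresses low values. Detection calls were not used. The number of arrays limits the precision.

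Gene names came from the platform annotation, which can be old. Of 45101 probe sets, 34945 had 1 symbol, 932 several, 9160 none, and 64 were controls. By gene number 34741 of the single-symbol probe sets matched the RefSeq gene table (GRCm38.p6), which was used for names and gene order. C4b has a probe set that carries several symbols, which was not used. Promoters came from RefSeq (GRCm38.p6): 25 of the 34 genes matched by symbol, and the first entry of a gene was used.

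For each gene the single-symbol probe set with the highest mean was kept. Genes with a mean at or above 4.21, the median of all values, were tested with limma 3.58.1 (lmFit, eBayes, two-sided, genotype as the only term) in R 4.3.3, with Benjamini-Hochberg adjustment over 11889 genes and a threshold of 0.05. All 32 genes passed the filter, and 42 of 43 probe sets. Fold changes are null over wild-type. The procedure was tested on simulated data. The 32 genes, lists and motifs were chosen with earlier results of these data known, so no test is given for a list as a whole.

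Each array was given for called genes, genes whose groups did not overlap and the 4 highest and 4 lowest of the set; from other lists the called genes (8 at most) and the next 2 by p were named, while most marker lists are given by counts. A few further genes were named for their role after values were seen. Deviations of same-numbered arrays of the genotypes correlated (r = 0.18, 0.20 and 0.52 over all genes), so the replicate number was also fitted as a block. Crossed pairs of numbers 1 and 2 correlated as much (0.21 and 0.17), so the data set apart number 3 and do not pair numbers 1 and 2. Pairs of a number 3 array with another gave -0.34 to -0.27. Deviations from a group mean cancel within each genotype, so these negative values are tied to the 0.52 and are not separate evidence. Figures were drawn with matplotlib 3.10.9.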

Additional observations from a re-analysis of the deposited data

How the results depend on the processing

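Of 28 values, 25 were recomputed under 15 alternatives and the others under at least 12. The sign changed for 1, that of Masp2, which, with a log2 fold change of 0.13, gave -0.019 without wild-type replicate 3 (range -0.019 to 0.274 over single arrays left out) and 0.126 without both number 3 arrays, which were low in both genotypes. The number of genes called, 556, was 984 with array weights, 329 with replicates 1 and 2 only, 318 with the most variable probe set and 275 to 438 without single arrays. Complement and clotting genes called higher numbered 1 (Pros1) with a filter at a mean of 6, eBayes trend and robust settings, array weights, the replicate block or the mean of all probe sets, and 0 otherwise. Those called lower numbered 4 with trend and robust settings or array weights (Mbl1, Mbl2, C1ra and Cfb), where 3.96% and 4.88% of all genes were called lower, against 3.13% in the fit reported, 1 (Mbl1) without the filter, with centred arrays, with replicates 1 and 2 only or with the most variable probe set, and 0 to 2 without single arrays. Of their probe sets, 1 was called higher with array weights. Called lower were 2 with a filter at 6, array weights or the replicate block, 4 with trend and robust settings, 0 with replicates 1 and 2 only, and 0 to 1 without single arrays. The median of -0.09 was -0.07 (-0.065) with centred arrays, -0.10 (-0.096) with array weights, -0.092 with replicates 1 and 2 only and -0.096 to -0.075 without single arrays. Genes whose groups did not overlap numbered 9 with centred arrays and, where fewer arrays make separation easier, 27 with replicates 1 and 2 only and 16 to 21 without single arrays. Other clotting genes called numbered 0 without the filter, with centred arrays, replicates 1 and 2 only or the most variable probe set, 2 with trend and robust settings, array weights or the replicate block, and 0 without any single array. Other plasma proteins called numbered 5 with trend and robust settings, 1 with replicates 1 and 2 only or the most variable probe set, and 1 to 2 without single arrays. The cause of these changes was not tested, beyond fewer arrays where arrays were left out. Over the 32 genes and all other lists, the replicate block changed the call of Pros1, C1s1, F2r, Cebpb, Cd14 and Lyve1, given with their values above, and of no other gene. Centring moved the median of all genes from 0.003 to 0.023.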
